A study of Homo sapiens with 12 samples.

Results

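The question addressed here is where the response of MDA-MB-231 cells to miR-145-5p changed when Ago2 was silenced. The quantity used is a difference between mimic effects: the change caused by the miR-145-5p mimic in Ago2-silenced cells minus its change in cells with normal Ago2, taken within each replicate number. All 12 of the 12 arrays of the series enter it. MDA-MB-231 is an established triple-negative breast cancer line of mesenchymal character. The 4 groups of 3 arrays were cells that received control oligonucleotides (cntrl), the miR-145-5p mimic (mimic145), a Dicer-substrate short interfering RNA against AGO2 (sirnaAGO2), or both active agents (sirnaAGO2+mimic145). The labels give 5 nM for the mimic and for its negative control, and 500 pM with 72 h for the silencing RNA and for its negative control; all groups are the same line, transfected transiently, and nothing in the sources says whether the replicates were separate cultures, so the spread between them may be technical. Labelled RNA from each sample was hybridized to an exon array on which a gene is read by several probes, and a gene's level is the mean of its probes as log2 of quantile-normalized signal. In bulk RNA, fewer cells of a kind and less RNA per cell cannot be told apart.

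A microRNA is loaded into an Argonaute protein and guides it to messenger RNAs whose 3′ untranslated region pairs with the seed, the bases near the 5′ end of the microRNA. The Argonaute binds TNRC6 proteins, which recruit deadenylases, and the bound transcript is translated less and decays. Ago2 is the human Argonaute with strong slicing activity, while Ago1, Ago3 and Ago4 can also carry microRNAs. The microRNA that was added is printed here from RefSeq (GRCh38.p14, chr5:149430661-149430683, plus strand), with the seed, bases 2 to 8, in capitals, because a transcript with the complementary letters is a candidate direct target.
hsa-miR-145-5p: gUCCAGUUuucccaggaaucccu
Sites for this seed were not searched in the transcripts, since no untranslated sequences were used here.

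The silenced arrays carried less AGO2 transcript, in the direction of their labels. AGO2 read 9.21, 9.14 and 9.01 in cntrl replicates 1 to 3, and 9.44, 9.36 and 9.39 in mimic145. It read 8.35, 8.44 and 8.42 in sirnaAGO2, and 8.27, 8.35 and 8.41 in sirnaAGO2+mimic145. All silenced arrays were below all others. With silencing, AGO2 fell by 0.71 on the log2 scale (limma adjusted p = 0.00492), which left 61.0% of its array signal, and in the presence of the mimic 48.1% was left. Each of these comparisons of 3 arrays with 3 had an exact permutation p of 0.1, the smallest possible. Silencing alone changed 475 genes (2.6%) at an adjusted p of 0.05, AGO2 among them. By array signal the silenced state is therefore a partial loss of the messenger, and its size varied with processing (-0.55 with a normexp background correction). The protein was not measured on the arrays. The paper followed it by western blot in its silencing experiments and describes the silenced cells as depleted of Ago2.

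A positive difference below means that a fall after the mimic was shallower, or a rise larger, in Ago2-silenced cells; a negative difference means that a rise was smaller or a fall deeper there. Of 18259 genes tested, 2 (0.011%) passed an adjusted p of 0.05, among them SAA2-SAA4, with a positive difference. At an adjusted p of 0.1 there were 350 (1.92%). At an unadjusted p of 0.05, called nominal here, there were 3063 (16.8%), of which 1624 (8.89%) were positive and 1439 (7.88%) negative. The median standard error of a difference was 0.14, and the median difference of all genes was 0.02. The mimic itself raised 2115 genes (11.6%) and lowered 2009 (11%) in control cells, and raised 774 (4.24%) and lowered 553 (3.03%) in silenced cells; the counts of these separate comparisons do not test the difference. Every mimic array lay in position 2 of its slide and its partner in position 1. Within an arm, mimic and position therefore cannot be told apart.

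The small number of passing genes depended on which probes were tested. Restricting the fit to probes that each of the 12 arrays called well above background gave 292 passing genes of 16409 (1.78%), 180 positive (1.1%) and 112 negative (0.683%). With all 18259 genes, the adjusted p of the other genes of the next paragraphs lay between 0.0511 and 0.0648, just outside the threshold. Of those 292 genes, 210 moved the same way in both arms and less far in silenced cells, 80 had opposite signs in the arms, and 2 moved further in silenced cells. All 112 negative genes had a positive mimic effect in control cells, and 178 of the 180 positive genes a negative one. A gene enters the difference with its control-cell effect subtracted, so this sorting is in part built in.

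Signal level also moved with the difference. In the dimmest 10% of genes the median difference was 0.19, with 15.2% of genes nominally positive, and in the brightest 10% it was -0.05, with 12.7% nominally negative. The dim shift lay in the silenced arm, whose median in the dimmest 10% was 0.19 where that of the control arm was 0.00. Its size followed the scaling: 0.10 with a normexp background correction, 0.20 in the authors' table and 0.33 with scaling to the 75th percentile, where the control arm had a median of 0.18 in the same genes. The part of signal level in the results on dim or bright gene families was not tested, and for the families of the cell surface and of secreted signals the median over the brighter probes is given too. The repeated probes of an array varied by 6.05% to 10.4% (coefficient of variation) in the 6 arrays with mimic and by 4.14% to 6.61% in the 6 without, which also differ in slide position.

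**Figure D1:**
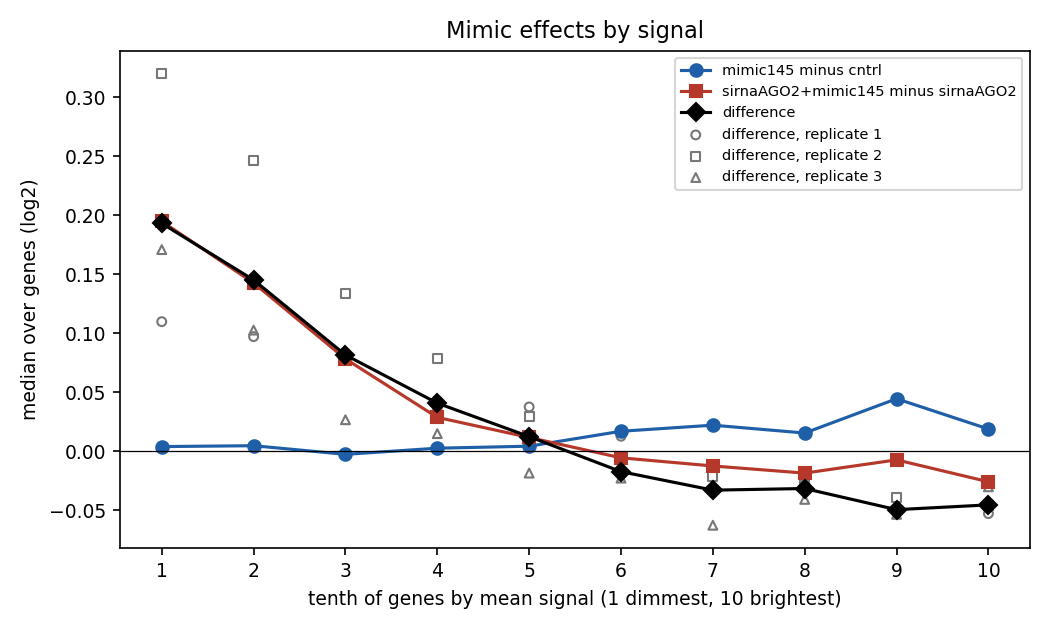
Median log2 mimic effect in control cells (blue circles), in Ago2-silenced cells (red squares) and their difference (black diamonds) for 10 equal bins of the 18259 genes ordered by mean signal; open markers are the difference in each of 3 replicates. The control arm stays near 0, while the silenced arm and the difference fall from 0.19 in the dimmest bin to below 0 from bin 6 on.

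Of the 10 genes with the smallest p among negative differences, taken from those with at least 3 probes and the same sign in all 3 replicates, 8 are described. None of the 8 passed an adjusted p of 0.05, and they are given as values. They include a contractile gene, genes of ribosome assembly, and single enzymes. MYL9, a regulatory light chain of smooth-muscle myosin, read 10.06, 10.46 and 10.33 in cntrl, 11.38, 11.77 and 11.77 in mimic145, 10.13, 10.47 and 10.52 in sirnaAGO2 and 10.62, 11.23 and 11.09 in sirnaAGO2+mimic145. The groups without mimic overlapped, and the mimic145 arrays were the highest. It had a mimic effect of 1.36 in control and 0.60 in silenced cells (difference -0.76 ± 0.10). MSRB3, a methionine sulfoxide reductase, had effects of 1.23 and 0.43, and it read 7.27, 7.31 and 7.54 in cntrl, 8.60, 8.60 and 8.62 in mimic145, 7.86, 7.89 and 7.97 in sirnaAGO2 and 8.12, 8.27 and 8.59 in sirnaAGO2+mimic145. Silencing alone raised MSRB3 by 0.53 (adjusted p = 0.0215), so the silenced arm started higher. E2F5, a repressive member of the E2F cell-cycle factors, was raised by silencing alone too, by 0.78 (adjusted p = 0.00285), and its mimic effects were 0.57 and -0.19. Of its 7 probes, 5 were above background on some cntrl array and 7 on some sirnaAGO2 array. The difference of E2F5 ranged from -1.02 to -0.08 over the alternatives tried, and E2F5 did not pass over the brighter probes. DHODH, the mitochondrial enzyme of pyrimidine synthesis, had effects of 0.56 and -0.14.

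Of these 8 genes, BYSL, IMP4 and CCDC86 code for nucleolar proteins, the first 2 of them factors of small-subunit ribosome assembly. IMP4 read 10.05, 10.14 and 10.10 in cntrl, 10.78, 10.72 and 10.72 in mimic145, 10.47, 10.51 and 10.41 in sirnaAGO2 and 10.60, 10.54 and 10.44 in sirnaAGO2+mimic145. The mimic145 arrays were the highest and the cntrl arrays the lowest, with both silenced groups between. The mimic effect on IMP4 was 0.64 in control and 0.06 in silenced cells, on BYSL 0.76 and 0.17, and on CCDC86 0.76 and 0.04. ZNRD2 had effects of 0.72 and 0.11.

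The positive genes were transcripts that the mimic lowered in control cells and lowered less in silenced cells. LXN, latexin, an inhibitor of carboxypeptidases, read 9.08, 9.11 and 9.02 in cntrl and 6.88, 7.40 and 7.17 in mimic145, but 8.61, 8.61 and 8.54 in sirnaAGO2 and 8.05, 7.91 and 8.07 in sirnaAGO2+mimic145. No array of one group overlapped with another. Its mimic effect was -1.92 in control and -0.58 in silenced cells, a difference of 1.34 ± 0.16. SPTLC3, a subunit of serine palmitoyltransferase, which starts sphingolipid synthesis, had effects of -1.68 and -0.60, with 12 of its 12 probes positive in the difference. ASB2, a substrate receptor of a ubiquitin ligase, had effects of -1.37 and -0.18.

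ADD3, an adducin that caps actin filaments and joins them to spectrin, read 8.64, 8.51 and 8.73 in cntrl, 7.31, 7.17 and 7.35 in mimic145, 8.36, 8.32 and 8.32 in sirnaAGO2 and 8.14, 7.79 and 7.80 in sirnaAGO2+mimic145. The effects on ADD3 were -1.35 and -0.42, and 13 of 13 probes were positive in the difference. SORBS2, an adaptor of the actin cytoskeleton, had effects of -1.51 and -0.59; with silencing alone SORBS2 fell by 0.92 (adjusted p = 0.00161), so its silenced arm started lower. HSBP1, SMIM19, MRPL51, NDUFB5 and HLA-DOA completed the 10 genes, with control-cell effects between -0.95 for SMIM19 and -1.19 for MRPL51 and silenced-cell effects between -0.18 for HLA-DOA and -0.40 for NDUFB5.

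**Figure D2:**
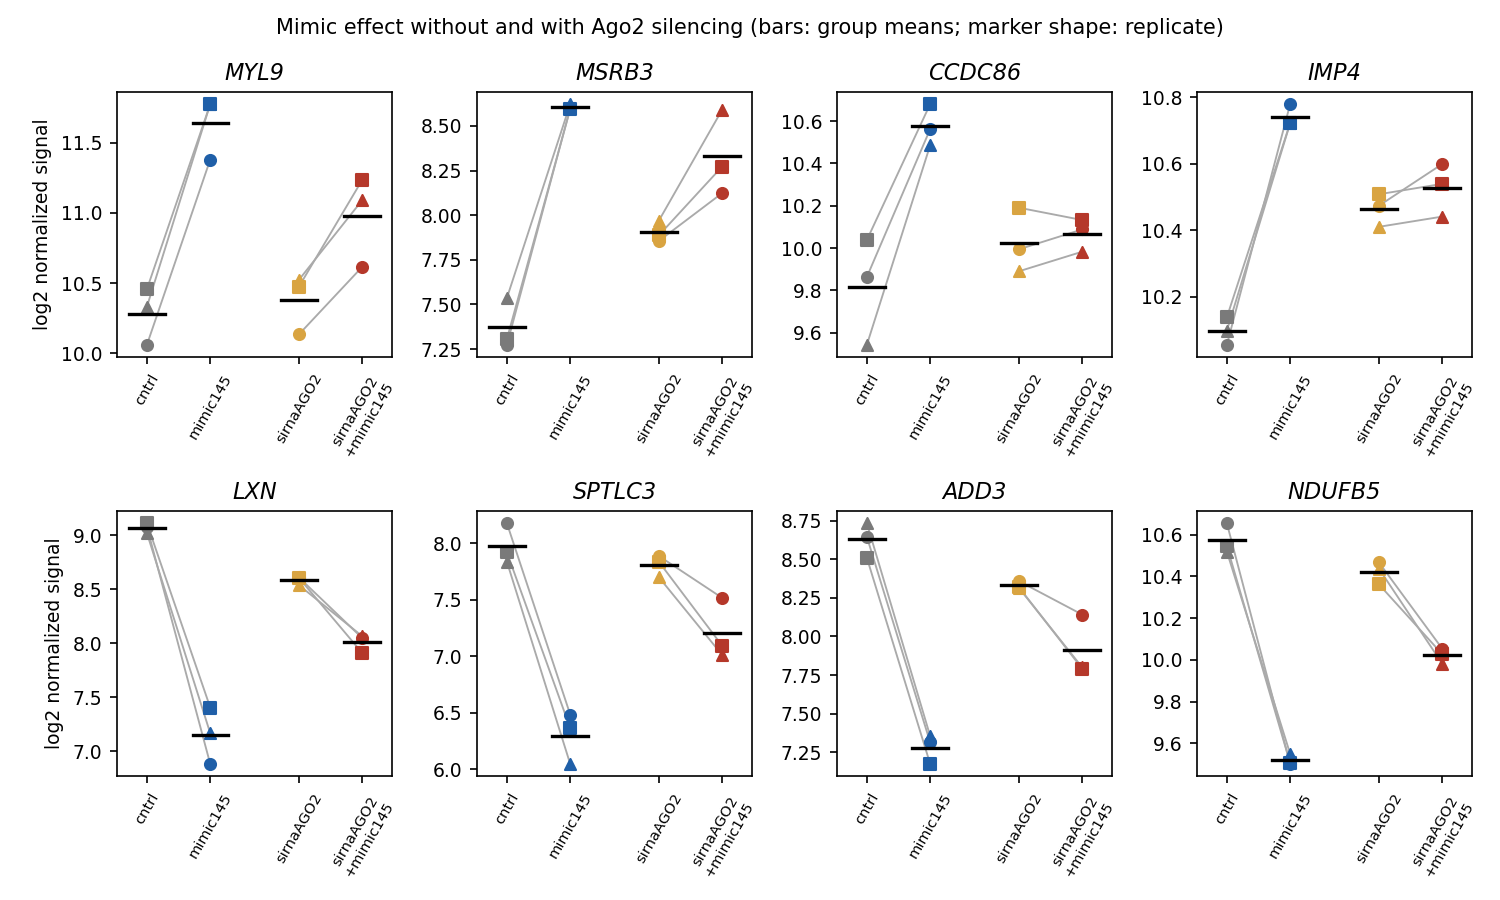
Log2 normalized signal of 8 named genes in each array; marker shapes are replicates, lines join the arrays of one replicate without and with mimic, and black bars are means of 3 arrays. In the upper row the mimic raises the gene in control cells and the step is smaller in silenced cells (MYL9, 1.36 against 0.60), and in the lower row the same holds for falls (LXN, -1.92 against -0.58). Each panel has its own axis, which does not start at 0.

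The serum amyloid A genes, acute-phase apolipoproteins that inflammatory signals induce, all had positive differences at a nominal p. The row SAA2-SAA4 is a readthrough of neighbouring paralogs that is read by 2 probes, so its signal cannot be assigned to one of them. SAA2-SAA4 read 8.31, 8.20 and 8.90 in cntrl, 6.48, 6.60 and 7.18 in mimic145, 8.05, 8.14 and 8.74 in sirnaAGO2 and 7.54, 7.33 and 8.15 in sirnaAGO2+mimic145. Its mimic effect was -1.72 in control and -0.64 in silenced cells, and the difference was 1.08 ± 0.11 (limma adjusted p = 0.0350; 0.579 without the replicate block, 0.18 with the slide as a fixed block, 0.0961 with it as a random block, and 0.0494 to 0.48 with an array or a replicate left out, under 0.05 only without mimic145 replicate 2). SAA1 had a difference of 0.89 ± 0.21, SAA2 of 1.02 ± 0.19 and SAA4 of 0.74 ± 0.13, none past an adjusted p of 0.05 (0.0995, 0.0817 and 0.0778). Replicate 2 had the smallest median over these genes, 0.56, against 1.00 and 1.24; the family was singled out after its values were seen, and near-identical paralogs may share signal.

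At the level of gene families, 86 lists with at least 5 genes tested were compared with all genes, as counts and medians and without a test of any list. In 27 lists the median difference lay below that of all genes in each of the 3 replicates, and in 20 it lay above.

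**Figure D3:**
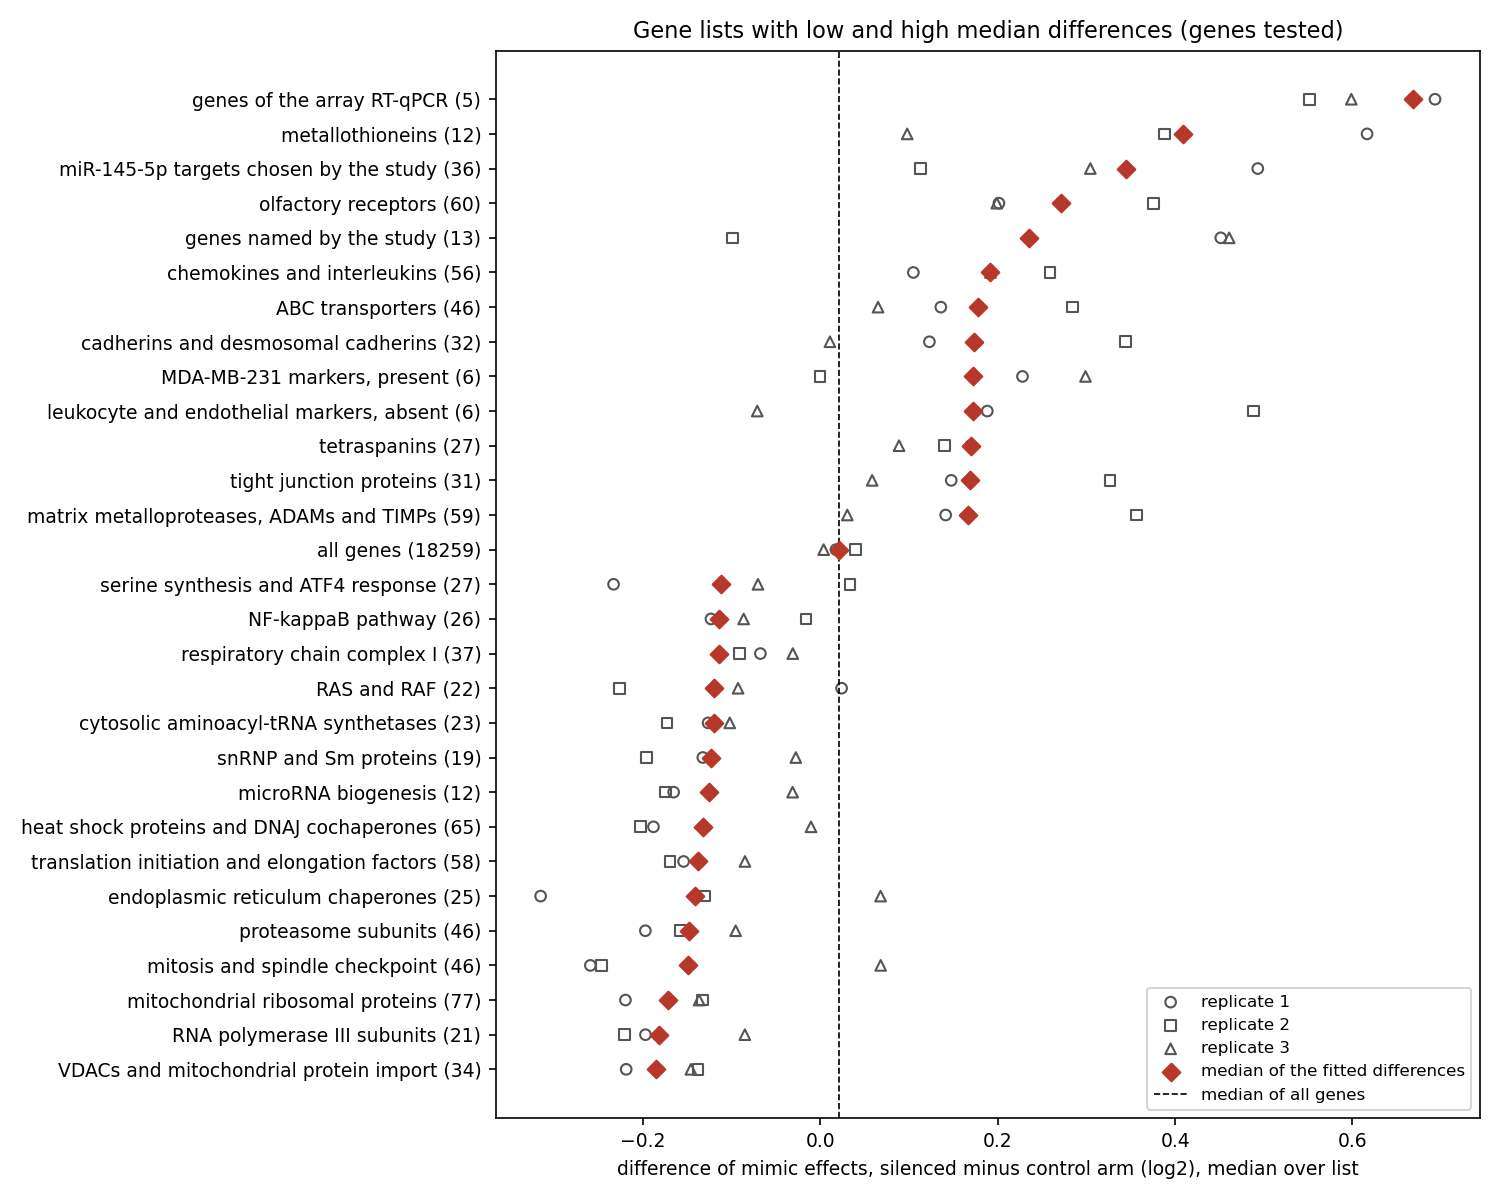
Median over each list of the difference of mimic effects (log2, silenced minus control arm): red diamonds are medians of the fitted differences, open markers those of single replicates, the dashed line the median of all 18259 genes, and brackets the genes tested. Among the lists plotted, the lowest medians are those of mitochondrial import (-0.19), RNA polymerase III (-0.18) and the mitochondrial ribosome (-0.17), and the highest that of the 5 genes the study followed by RT-qPCR (0.67).

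Nuclear genes for mitochondrial proteins did not behave as one block. The voltage-dependent anion channels of the outer membrane and the TOM and TIM translocases that import proteins had the lowest median of the 86 lists, -0.19, with -0.22, -0.14 and -0.15 in replicates 1 to 3. Of 34 genes 11 were nominally negative and 1 positive, where 7.88% and 8.89% of all genes were. The list was bright, with a median log2 signal of 10.35. In that bin of signal, 9 of 10, 14.4% of genes were nominally negative and 7.45% positive. The median mimic effect of the list was 0.19 in control and -0.07 in silenced cells. TOMM22, a receptor of the outer-membrane translocase, read 9.45, 9.54 and 9.43 in cntrl, 9.84, 9.70 and 9.86 in mimic145, 9.60, 9.68 and 9.57 in sirnaAGO2 and 9.43, 9.53 and 9.51 in sirnaAGO2+mimic145. The mimic145 arrays were the highest, and the sign of the mimic effect turned between arms (0.32 and -0.13; difference -0.45 ± 0.10, adjusted p = 0.0979). TIMM10, a chaperone of the intermembrane space, had effects of 0.47 and -0.08, TOMM5 of 0.37 and 0.00, and TOMM70 of 0.17 and -0.22. The nominally positive member was VDAC3, one of the genes the study chose for RT-qPCR, with effects of -0.43 and -0.21 (difference 0.23 ± 0.10). Over the brighter probes, TIMM10, TIMM50, TOMM22 and TOMM5 passed an adjusted p of 0.05, all negative. They are 11.8% of the 34 genes tested there, against 0.683% negative among all genes.

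The mitochondrial ribosome, which translates the genes of mitochondrial DNA, had a median of -0.17 over 77 genes, and 64 of the 77 were negative. Of the 77 genes, 23 were nominally negative (29.9%, against 14.4% in the signal bin of the list's median) and 3 nominally positive. Over the brighter probes 1 of the 77 passed an adjusted p of 0.05 on each side, together 2.6% of the list, near the 1.78% of all genes. The median effect of the mimic was 0.15 in control and -0.02 in silenced cells. MRPL9 read 10.09, 10.21 and 9.89 in cntrl, 10.60, 10.67 and 10.48 in mimic145, 10.17, 10.25 and 10.07 in sirnaAGO2 and 10.35, 10.43 and 10.07 in sirnaAGO2+mimic145, a mimic effect of 0.52 against 0.12. MRPS9, MRPL22 and MRPL28 had differences of -0.40, -0.33 and -0.31. MRPL51 went the other way by 0.85 ± 0.11, the largest difference in the list, with effects of -1.19 and -0.33, and so did MRPL40 (0.30) and MRPL17 (0.32).

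Complex I, the entry point of NADH into the respiratory chain, held 11 nominally negative and 1 nominally positive gene of 37, with a median of -0.11. The negative share was 29.7%, against 12.7% in the brightest 10% of genes, where the list's median signal lay. Over the brighter probes 1 gene passed an adjusted p of 0.05 by limma on each side, NDUFB9 negative and NDUFB5 positive. NDUFB9 had effects of 0.50 and 0.00 (difference -0.50 ± 0.10) and NDUFV2 of 0.40 and -0.10. NDUFB5 opposed them: it read 10.65, 10.55 and 10.52 in cntrl, 9.50, 9.50 and 9.55 in mimic145, 10.47, 10.36 and 10.44 in sirnaAGO2 and 10.05, 10.03 and 9.98 in sirnaAGO2+mimic145, effects of -1.05 in control and -0.40 in silenced cells. The groups of NDUFB5 did not overlap. ATP synthase had a median of -0.10, with 2 of 18 genes nominally negative (11.1%, under the 12.7% of the brightest 10% of genes) and 0 positive. Complexes II, III and IV had a median of 0.00, with 3 nominally positive and 2 negative genes of 31, and mitochondrial translation factors a median of -0.04, with 3 and 4 of 28.

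Fatty acid oxidation, the breakdown of fatty acyl chains to acetyl-CoA in the same organelle, lay on the other side. Its list, with the electron transfer flavoprotein that passes the electrons on, had 5 nominally positive and 0 nominally negative genes of 28, and a median of 0.09 (0.08, 0.14 and 0.10 in the replicates). DECR1, which handles unsaturated chains, read 11.06, 11.01 and 11.11 in cntrl, 9.95, 10.10 and 10.08 in mimic145, 10.75, 10.86 and 10.91 in sirnaAGO2 and 10.63, 10.51 and 10.48 in sirnaAGO2+mimic145. ETFB, the beta subunit of the flavoprotein, read 10.74, 10.94 and 11.01 in cntrl, 9.93, 9.92 and 10.07 in mimic145, 10.65, 10.86 and 10.88 in sirnaAGO2 and 10.53, 10.47 and 10.63 in sirnaAGO2+mimic145. Their effects in control cells were -1.01 and -0.92, and the differences 0.71 ± 0.11 and 0.67 ± 0.10 (adjusted p = 0.0614 for each). CPT2, which rebuilds acyl-CoA inside the mitochondrion, had effects of -0.50 and 0.03, and ECI2, an enoyl-CoA isomerase, of -0.61 and -0.23. Over the brighter probes, CPT2, DECR1, ECI2, ETFB and ETFDH passed an adjusted p of 0.05, that is 5 of the 27 genes tested there (18.5%, against 1.1% positive among all genes). DECR1 and ETFB were picked by the study from these arrays, so these 2 are not independent evidence of a direction.

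**Figure D4:**
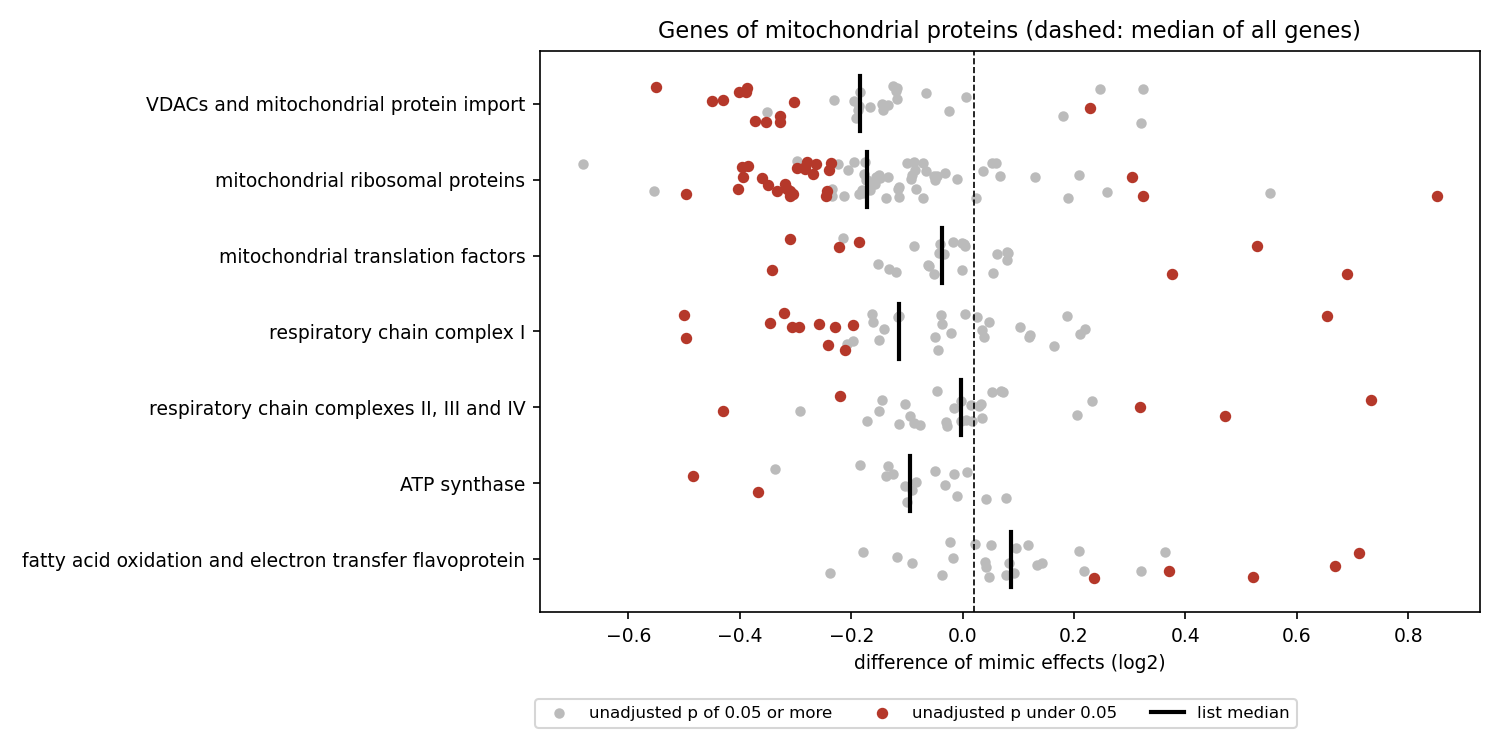
Difference of mimic effects (log2) of each gene in 7 lists of nuclear genes for mitochondrial proteins; red points have an unadjusted p under 0.05, black bars are list medians, the dashed line is the median of all genes, and the vertical scatter within a list has no meaning. Import (median -0.19) and the mitochondrial ribosome (-0.17) lie to the left, fatty acid oxidation (0.09) to the right, and MRPL51 at 0.85 lies far from its own list.

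Transcription and translation machinery outside the mitochondrion had negative medians. RNA polymerase III makes transfer RNAs and 5S ribosomal RNA. Its list had a median of -0.18, with 8 of 21 genes nominally negative and 0 positive. Over the brighter probes 0 of the 21 passed an adjusted p of 0.05 by limma, and the median was -0.14. POLR3D read 8.11, 8.16 and 7.89 in cntrl, 8.53, 8.59 and 8.50 in mimic145, 8.36, 8.42 and 8.27 in sirnaAGO2 and 8.24, 8.24 and 8.25 in sirnaAGO2+mimic145, a mimic effect of 0.49 against -0.11 (difference -0.60 ± 0.10, adjusted p = 0.0695). POLR3E had effects of 0.69 and 0.10, and POLR1C, which polymerase I shares, of 0.39 and 0.06. In the list of cytosolic aminoacyl-tRNA synthetases, which charge transfer RNAs, 6 of 23 genes were nominally negative and 0 positive, with a median of -0.12. The negative share was 26.1%, against 14.4% in the signal bin of the list's median. AIMP2, a scaffold of the synthetase complex, had effects of 0.48 and -0.11, and FARSB, a subunit of the phenylalanine enzyme, of 0.26 and -0.31.

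Translation initiation and elongation factors had a median of -0.14, with 10 nominally negative and 2 positive genes of 58. The negative share was 17.2%, against 12.7% in the brightest 10% of genes, where the list's median signal lay. Over the brighter probes 0 of 57 passed an adjusted p of 0.05 by limma. EEF1A2, an elongation factor, had effects of 0.94 and 0.28, EIF2B2, a subunit of the exchange factor of eIF2, of 0.59 and 0.19, and EIF4G3, an initiation scaffold, of 0.37 and 0.03. The positive genes were the eIF2 kinases EIF2AK1, with effects of -1.55 and -1.23, and EIF2AK4, with effects of -0.68 and -0.37. Cytosolic ribosomal proteins did not show the pattern of their mitochondrial counterparts: 4 of 86 genes were nominally negative and 1 positive, a smaller share than among all genes, and the median was -0.05.

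The proteasome, which degrades ubiquitinated proteins, had a median of -0.15 (-0.20, -0.16 and -0.10 in the replicates). Of 46 genes, 16 (34.8%) were nominally negative, against 7.88% of all genes. The list's median signal lay in the brightest 10% of genes, where 12.7% were. Over the brighter probes 1 of the 46 passed an adjusted p of 0.05 by limma (2.17%, near the 1.78% of all genes). PSMC4, an ATPase of the base, read 10.27, 10.36 and 10.33 in cntrl, 10.78, 10.80 and 10.89 in mimic145, 10.42, 10.56 and 10.48 in sirnaAGO2 and 10.58, 10.62 and 10.52 in sirnaAGO2+mimic145, a rise of 0.50 in control cells and a value of 0.09 in silenced cells. PSMC3 and PSMC6, also ATPases, had differences of -0.37 and -0.39, and PSMB6, a catalytic subunit, of -0.36. The nominally positive members were PSMB9 (0.44 ± 0.12) and PSMB8 (0.32 ± 0.12), which replace the standard catalytic subunits in the interferon-induced immunoproteasome. PSMB9 had effects of -0.31 in control and 0.13 in silenced cells.

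Chaperone lists were less uniform between replicates. Endoplasmic reticulum chaperones had a median of -0.14, but replicate medians of -0.32, -0.13 and 0.07. Of 25 genes, 4 (16%) were nominally negative, near the 14.4% in the signal bin of the list's median. Over the brighter probes 0 of the 25 passed an adjusted p of 0.05 by limma. HYOU1, DNAJB11 and DNAJB9 had control-cell effects of 0.79, 0.80 and 1.37, and silenced-cell effects of 0.32, 0.43 and 0.78. Heat shock proteins and DNAJ cochaperones had a median of -0.13, with 12 nominally negative and 1 positive gene of 65; DNAJB1 had effects of 0.62 and 0.19 and HSP90AB1 of 0.20 and -0.24. Genes of mitosis had a median of -0.15 that rested on replicates 1 and 2 (-0.26 and -0.25, against 0.07 in replicate 3), and 2 of 46 were nominally negative, MAD1L1 and PTTG1, a share under that of all genes.

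**Figure D5:**
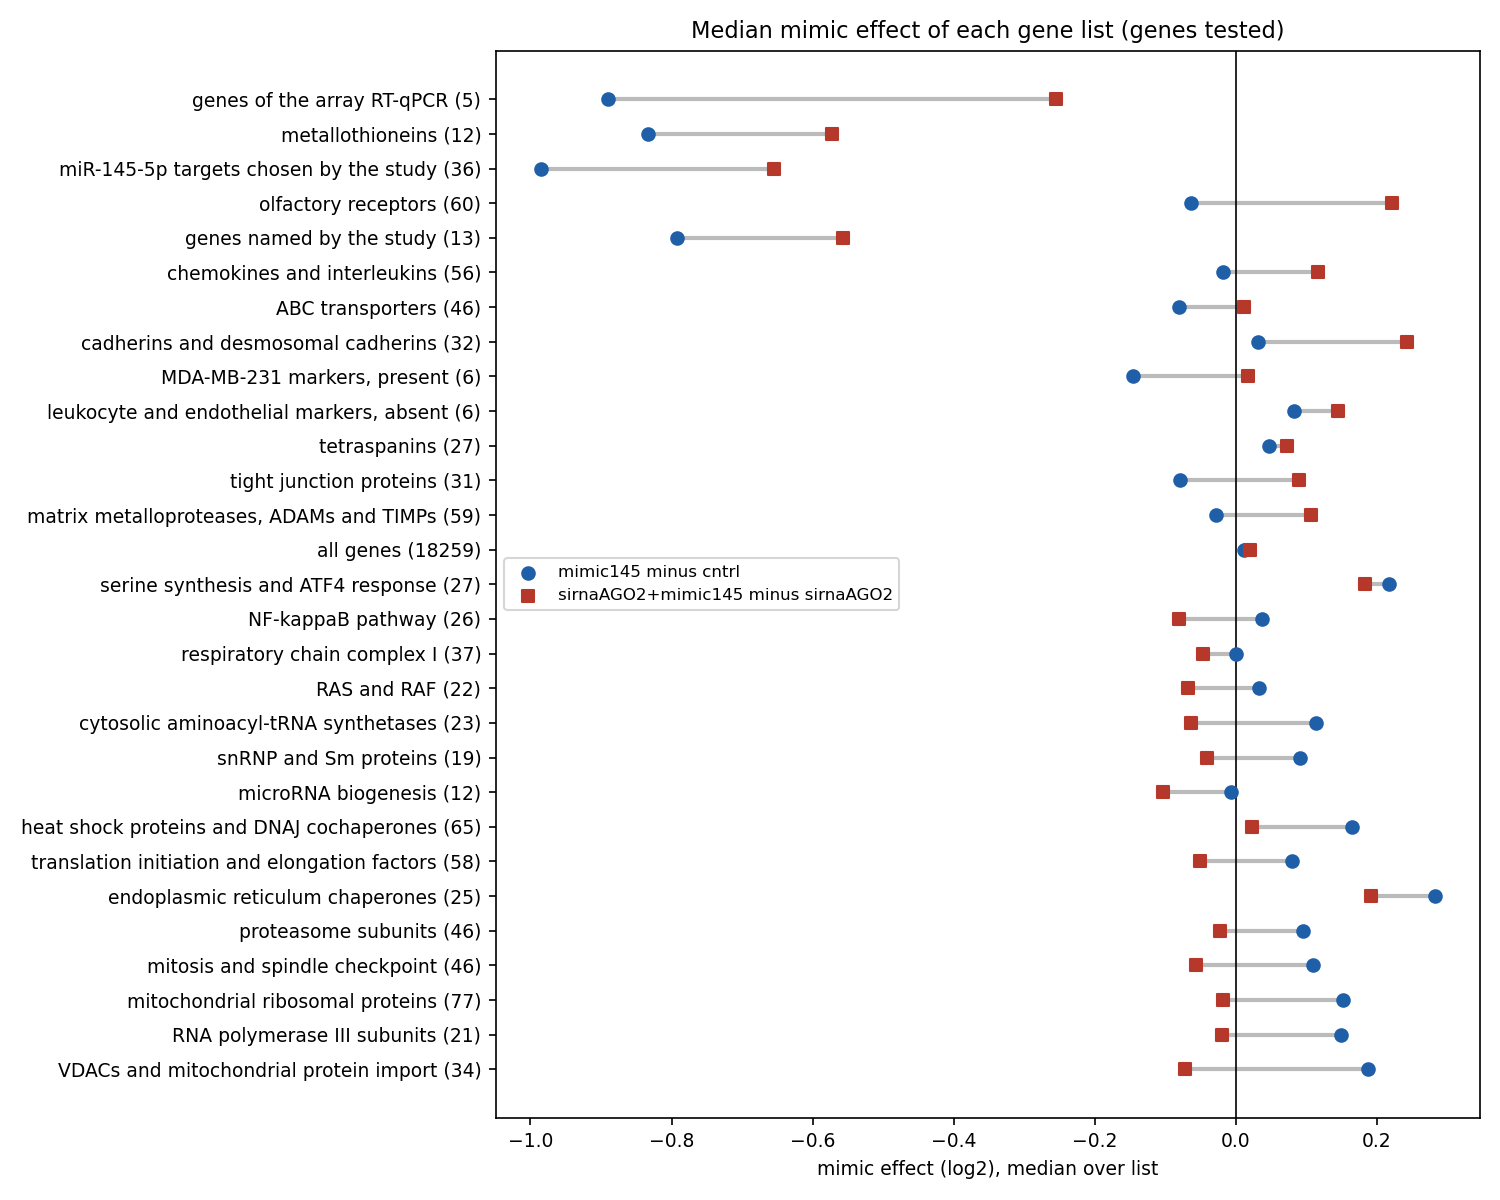
Median mimic effect (log2) of the same lists in control cells (blue circles, mimic145 minus cntrl) and in Ago2-silenced cells (red squares, sirnaAGO2+mimic145 minus sirnaAGO2). In the lower part of the plot the control median is above that in silenced cells, for import 0.19 against -0.07; the target lists and metallothioneins lie far to the left in both arms, for metallothioneins -0.83 against -0.57.

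The list of direct targets that the study assembled from genes lowered on these arrays had a median difference of 0.34, and 21 of 36 genes were nominally positive and 0 negative. The selection used these arrays, so this count is not independent evidence that the mimic acted less in silenced cells. Its median mimic effect was -0.99 in control and -0.66 in silenced cells, so that most of the fall was still seen after silencing. F11R, the junctional adhesion molecule JAM-A, read 8.51, 8.47 and 8.61 in cntrl, 6.83, 6.96 and 7.01 in mimic145, 7.80, 7.84 and 7.89 in sirnaAGO2 and 7.16, 6.80 and 6.82 in sirnaAGO2+mimic145. The arrays with mimic overlapped between the arms, and with silencing alone F11R fell by 0.69 (adjusted p = 0.0167). Its effects were -1.60 and -0.92, with a difference of 0.68 ± 0.14.

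Within that list the size of the difference varied. GOLM1, a Golgi membrane protein, had effects of -1.28 and -0.57, and NIPSNAP1, a mitochondrial protein, of -0.77 and -0.22. FSCN1, the actin-bundling protein fascin, kept most of its fall, with effects of -2.16 and -1.53, as did GMFB, a regulator of actin branches, with -1.93 and -1.33. Others had nearly equal effects in both arms. ABHD17C, a depalmitoylase, had -1.30 in each, PIGF, of anchor lipid synthesis, -1.15 and -1.18, YES1, a kinase of the SRC family, -0.69 and -0.73, and NRAS, the small GTPase, -0.60 and -0.66. The 95% intervals of these differences reach 0.35 for ABHD17C, 0.43 for PIGF, 0.42 for YES1 and 0.24 for NRAS on either side of the estimate.

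Other targets of miR-145, known from other studies and listed apart from those of the study, had a median difference of -0.02, with 22 of 36 genes negative. At a nominal p 3 (8.33%) were positive, close to the 8.89% of all genes, and 0 negative, and over the brighter probes 0 of 35 passed an adjusted p of 0.05 by limma. Of the 3, MAP4K4, a kinase of cell motility, had effects of -1.04 and -0.40, TPM3, a tropomyosin, of -0.75 and -0.43, and TGFBR2, a receptor of TGF-beta, of -0.54 and -0.11. Over the 36 genes the median mimic effect was only -0.06 in control and -0.09 in silenced cells. In control cells 9 were lowered and 4 raised at a limma adjusted p of 0.05. With so little effect to lose, a difference near 0 is no evidence on targets that the mimic lowers. The study's list took targets lowered on these arrays, so the remainder is not independent of them.

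The 5 genes of the study's RT-qPCR were all nominally positive, with a median of 0.67; they were chosen by the study for this pattern. DOCK9, an exchange factor of CDC42, read 9.25, 9.03 and 9.18 in cntrl, 8.26, 8.23 and 8.29 in mimic145, 9.34, 9.17 and 9.16 in sirnaAGO2 and 9.36, 8.92 and 9.05 in sirnaAGO2+mimic145, with effects of -0.89 and -0.11. GFM2, a mitochondrial factor of ribosome recycling, had effects of -0.76 and -0.39. Of 13 other genes that the study names, 5 (38.5%) were nominally positive, against 8.89% of all genes. The study named them among genes lowered by the mimic on these arrays, so this count is not independent evidence of a direction. MAP3K8, the kinase TPL2, had effects of -1.37 and -0.58, ABCA1, which exports cholesterol, of -1.03 and -0.56, and ABCD4, a lysosomal transporter, of -0.40 and -0.04. The differences of ABCB10 (0.22), MAP3K1 (0.35), CDK6 (0.18), ABCE1 (0.24) and CCNG1 (0.14) were positive and those of MAP3K4 (-0.19), PCDH1 (-0.24) and ABCA11P (-0.09) negative, none at a nominal p.

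Metallothioneins, small cysteine-rich proteins that bind zinc and copper, had the highest median of the 86 lists apart from the genes of the study's RT-qPCR. Of 12 genes, 8 were nominally positive and 0 negative, and the median was 0.41, with 0.62, 0.39 and 0.10 in the replicates. Their median mimic effect was -0.83 in control and -0.57 in silenced cells. MT1F read 10.38, 10.48 and 9.81 in cntrl, 8.63, 8.66 and 8.41 in mimic145, 10.18, 10.35 and 9.67 in sirnaAGO2 and 9.49, 9.52 and 8.69 in sirnaAGO2+mimic145. The mimic145 arrays were the lowest in every replicate, and the difference was 0.82 ± 0.16 (adjusted p = 0.0817). MT1X, MT1G and MT1E had differences of 0.43, 0.39 and 0.51. MT2A, at 0.18, MT1L, at 0.04, and MT4, at -0.56, were not nominal. These genes are near-identical copies in a cluster on chromosome 16, each read by 1 to 3 probes that may capture transcripts of the others, so the 12 values are not independent measurements.

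The promoters of 5 of the 12 metallothioneins are in the RefSeq table used here (250 bases before to 50 after the start, GRCh38.p14). Metal response elements are the sites of the zinc-sensing factor MTF1. The pattern TGCNCNC, a loose form of their core, was searched on both strands with overlaps counted, so a match need not be such an element. All 5 promoters held at least 3 matches, as did 10.3% of 14212 promoters of tested genes, and 62% of those held at least 1. The windows below, 30 bases each and wholly upstream of the start, show in capitals the match nearest to the start that has room for the window; a match is a description of the letters and no evidence of binding.
MT1X (chr16:56682406-56682435, plus strand): ggcggggcctcTGCGCCCggccctcttccc
MT1H (chr16:56669750-56669779, plus strand): ggcagggtctcTGCACCCggctccctcccc
MT2A (chr16:56608519-56608548, plus strand): ggcggggctttTGCACTCgtcccggctctt
MT1X has 4 matches, and MT1H and MT2A have 8 each; their differences were 0.43, 0.43 and 0.18, nominal for MT1X. Of the other promoters, that of MT1B has 5 matches, with a nominal difference of 0.34, and that of MT4 has 6, with a difference of -0.56 that was not nominal.

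Families of the cell surface and of secreted signals had positive medians. The median log2 signal of the lists in this and the next paragraph lay between 7.18 and 7.74, against 8.04 for all genes, except for tetraspanins (8.12) and olfactory receptors (6.14). The filter on dim probes lets a gene in through the group where it is highest, so the lists' nominal counts are descriptions only. Chemokines and interleukins had 9 nominally positive and 0 negative genes of 56, with a median of 0.19 (0.20 over the brighter probes). IL15, a cytokine of natural killer and T cells, had effects of -0.68 and 0.00, CXCL1, a neutrophil chemokine, of -0.68 and -0.08, and CCL28, a mucosal chemokine, of -1.81 and -0.80. Tetraspanins, organizers of membrane domains, had 7 positive and 1 negative gene of 27 and a median of 0.17 (0.12 over the brighter probes). TSPAN2 read 6.57, 6.81 and 6.64 in cntrl, 6.24, 6.51 and 6.74 in mimic145, 6.44, 6.69 and 6.59 in sirnaAGO2 and 6.78, 7.26 and 7.23 in sirnaAGO2+mimic145. Here the silenced arm carried the difference: the mimic effect was -0.17 in control and 0.52 in silenced cells.

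Tight junction proteins had 7 positive and 1 negative gene of 31, with a median of 0.17 (0.13 over the brighter probes). F11R had the smallest p, and TJP1, the scaffold ZO-1, was the negative gene, with effects of 0.43 and 0.05. Serpins had 8 positive and 1 negative gene of 29 and integrins 6 and 1 of 25, with medians of 0.10 and 0.09 (0.09 and 0.08 over the brighter probes). Over the brighter probes 22 tight junction genes, 21 serpins and 23 integrins were tested. In each list 1 gene passed an adjusted p of 0.05 by limma (F11R, SERPINB1 and ITGA6), where 1.78% of all genes passed. ITGA6, the laminin receptor subunit, was the negative integrin, with 10.20, 10.37 and 10.19 in cntrl, 11.16, 11.14 and 10.99 in mimic145, 11.06, 10.89 and 10.81 in sirnaAGO2 and 11.40, 11.13 and 11.05 in sirnaAGO2+mimic145. Silencing alone raised ITGA6 by 0.67 (adjusted p = 0.0104), and the mimic effect was 0.85 before and 0.27 after silencing. Cadherins, with a median of 0.17 (also 0.17 over the brighter probes), had 1 positive and 2 negative genes of 32, below the share of all genes. Matrix metalloproteases, ADAMs and their inhibitors had 6 nominally positive genes of 59 (10.2%, near the 8.89% of all genes), with a median of 0.17 (0.18 over the brighter probes). Olfactory receptors, sensors of the nasal epithelium, had a median of 0.27 with 13 nominally positive genes of 60. Over the brighter probes 21 were tested, with a median of 0.21, and 0 passed an adjusted p of 0.05 by limma. Only 60 of the 344 on the array passed the filter on dim probes, which lets a gene in through the group where it is highest, and the excess of their median over that of all genes ranged from 0.05 to 0.33 over the other settings tried.

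Actin regulators moved in both directions. Of 83 genes, 13 were nominally positive and 8 negative, with a median of -0.01. Beside ADD3, FSCN1 and GMFB on the positive side stood GSN, gelsolin, which severs filaments, with effects of -0.62 and -0.14. On the negative side TPM2, a tropomyosin of muscle, read 8.49, 8.69 and 8.52 in cntrl, 9.59, 9.78 and 10.32 in mimic145, 8.84, 9.05 and 9.37 in sirnaAGO2 and 8.78, 9.16 and 9.67 in sirnaAGO2+mimic145. Its mimic effect was 1.33 in control and 0.12 in silenced cells (difference -1.21 ± 0.21, adjusted p = 0.0765). ARPC4, a subunit of the branching complex ARP2/3, had effects of 1.02 and 0.45. In the family of hypoxia factors, 5 genes were positive and 3 negative of 25: EGLN3, an oxygen-sensing hydroxylase, had effects of -0.96 and -0.23, and HIF1A, the factor it marks for degradation, of 0.51 and 0.02. The COMMD family, partners of copper and NF-kappaB pathways, split evenly: COMMD2 and COMMD6 were nominally positive (0.44 and 0.22) and COMMD7 and COMMD10 negative (-0.35 and -0.39), of 10 genes.

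Genes of the microRNA machinery were looked at in 3 lists. Of 12 genes of microRNA biogenesis 0 were nominal by limma, and 0 passed an adjusted p of 0.05, though 10 of 12 were negative (median -0.13). The brightest, RAN, DDX5 and DDX17, had differences of -0.04, -0.15 and 0.00, and DICER1, which cuts the precursor, and DROSHA, which cuts the primary transcript, of -0.19 ± 0.10 and -0.18 ± 0.10. Among Argonautes, AGO2 had a difference of -0.34 ± 0.11 (unadjusted p = 0.0114, adjusted p = 0.181): the mimic raised AGO2 by 0.28 in control cells (adjusted p = 0.0298) and its effect was -0.06 in silenced cells, where the transcript is the target of the silencing RNA. AGO1, AGO3 and AGO4 had differences of -0.13 ± 0.08, -0.10 ± 0.12 and 0.03 ± 0.10. Of the TNRC6 proteins, TNRC6B had a nominal difference of 0.28 ± 0.11 with effects of -0.05 and 0.23, and those of TNRC6A and TNRC6C were -0.18 ± 0.11 and -0.09 ± 0.11. The factors of deadenylation, decapping and decay had 2 positive and 5 negative genes of 38, a share close to that of all genes.

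The cell line was checked by its markers. All probes of VIM, CD44, MSN, AXL, CAV1 and S100A4, genes that MDA-MB-231 expresses, were well above background in each group. Of the genes that it should lack, PGR and FOXA1 had no probe that passed the filter, but KRT19 and GATA3 had all 6 of their probes above background, ERBB2 25 of 30, EPCAM 9 of 10, CDH1 7 of 16 and ESR1 6 of 14 in at least 1 group. Of the leukocyte and endothelial markers, PTPRC had 4 of 33 probes above background, CDH5 4 of 13 and CD14 1 of 4. Among these leukocyte and endothelial genes, the nominal difference was that of CD14, 0.64 ± 0.16 from 1 probe.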

How the data were processed

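RNA from 12 samples of MDA-MB-231 was hybridized by the authors to single-colour Agilent exon arrays and read with Agilent Feature Extraction 10.7.3.1. The deposited intensity is the processed signal of each array after its own background correction, before any scaling across arrays. A second deposited file holds quantile-normalized log2 values of 217027 probes and served as an alternative. Groups and replicate numbers come from the labels.

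Control spots and outlier spots were left out, intensities of all 12 arrays were brought to common quantiles, their log2 was taken, and probes were averaged per gene. Probes were matched to genes through the transcript accession and RefSeq (209671 of 233164 probes). Probes had to be called well above background in every array of some group, and 142977 probes in 18259 genes met this. With 3 arrays in a group, the number of arrays limits the precision.

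limma 3.58.1 (R 4.3.3) fitted 4 groups with the replicate number as a block, the paired design of the paper's methods. Deviations from group means correlated at 0.148 to 0.576 across genes for the 18 same-number pairs. P-values were two-sided, adjusted by Benjamini-Hochberg across all genes. Each of 6 slides held the pair of arrays, without and with mimic, of one replicate and silencing state, the mimic array in position 2. A mimic effect within an arm thus cannot be told apart from an effect of position. The genes named are those past an adjusted p of 0.05, the 10 with the smallest p in each direction (at least 3 probes, 1 sign in all replicates), up to 4 nominal members in each direction of a described list, the Argonaute and TNRC6 genes and the genes of the study; other names are marked, and results on some items that meet this rule are not reported here. Members and lists were chosen with earlier results of these data known. The script was tested on simulated arrays. Plots used Python 3.11.15 and matplotlib 3.10.9. Alternatives were the 75th percentile, normexp (offset 50), the authors' table, other probe filters, the median over probes, other blocks, an intensity trend, the methods' t-test, and leaving out arrays.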

Additional observations from a re-analysis of the deposited data

Results flagged for a closer look

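The effect of the mimic on SAA2-SAA4 differed between control and Ago2-silenced cells, by a test of the difference itself (limma, Benjamini-Hochberg over 18259 genes). The difference was 1.08 (adjusted p = 0.0350), from an effect of -1.72 in control cells to -0.64 in silenced cells, and it was positive in all 3 replicates (1.32, 0.79 and 1.12), with 2 probes behind the value. By limma the adjusted p was over 0.05 without the replicate block (0.579) and with the slide as a fixed (0.18) or random (0.0961) block, and with an array or a replicate left out it was 0.0494 to 0.48.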

How the results depend on the processing

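The count of genes past an adjusted p of 0.05 for the difference moved most. It was 2 as reported, 2 with the 75th percentile, 3 with the median over probes, 150 with normexp, 33 in the authors' table, 5 with no filter, 292 with probes above background on all 12 arrays, 30 with the slide as a random block, 99 with an intensity trend, 0 with the slide as a fixed block, 350 at an adjusted p of 0.1, and 241 in genes with at least 3 probes, a setting chosen after seeing the data. The methods' paired t-test gave 0 after adjustment, and 954 positive and 936 negative genes before it. Without the replicate block, so that the pairing was ignored, it was 0, the nominal counts fell to 718 positive and 660 negative, and the genes past the threshold to 1997 for mimic145 against cntrl and to 78 for sirnaAGO2+mimic145 against sirnaAGO2. The last of these counts was 1327 as reported, 2396 with the 75th percentile, 2196 with normexp, 2036 in the authors' table, 2104 with the 12-array filter and 319 with the slide as a fixed block. Leaving out arrays or replicates gave 0 to 3 genes for the difference, 1130 to 2075 nominally positive and 654 to 1452 negative, 1214 to 4431 for mimic145 against cntrl, and 0 (without replicate 2, and without replicate 3) to 2290 for the silenced arm. The fall of AGO2 with silencing ran from -0.78 to -0.64 over these, and its adjusted p was over 0.05 without sirnaAGO2 replicate 1 (0.0522) and without replicate 1, 2 or 3 (0.221, 0.114 and 0.166). The causes were not tested. With the 75th percentile the median of all genes was 0.11 in the silenced arm and 0.07 in the difference, so lists were compared relative to it. All 21 genes selected by p kept the sign of their difference in 26 alternatives (25 for SAA2-SAA4, which has too few probes for one of them), as did the median, relative to all genes, of 78 of 89 lists under other settings and of 68 when arrays were left out; complex I, import, the mitochondrial ribosome, RNA polymerase III, the proteasome, fatty acid oxidation and metallothioneins were among both. Precision is limited by 3 arrays in a group and, for dim probes, by signal near background.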

Other observations

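Among the 292 genes that passed over the brighter probes, 2 groups of genes stood out and were put into lists after their values were seen, so their counts are a description with no weight as a test. The first was HLA class II and antigen loading, the molecules that present peptides from the endosome, which some tumour lines express. Of 19 genes 15 were nominally positive and 0 negative, and the median difference was 0.67 (0.91, 0.62 and 0.48 in the replicates), with a median mimic effect of -0.88 in control and -0.19 in silenced cells. HLA-DRA read 11.50, 10.94 and 11.21 in cntrl, 9.88, 9.57 and 9.08 in mimic145, 10.46, 10.20 and 10.12 in sirnaAGO2 and 9.97, 9.34 and 9.13 in sirnaAGO2+mimic145; with silencing alone it fell by 0.96 (adjusted p = 0.0158). CIITA, the transactivator of these genes, had a difference of 0.05 ± 0.11, with effects of -0.18 and -0.13. CD74, the invariant chain, had effects of -0.83 and -0.22. The HLA-DR genes share sequence, and their probes may share signal.

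The second group was factors of ribosome assembly in the nucleolus, to which BYSL, IMP4 and CCDC86 belong. Of 64 genes 36 were nominally negative and 0 positive, and 61 of 64 had a negative difference. The median was -0.27 (-0.32, -0.35 and -0.14 in the replicates), with a median mimic effect of 0.16 in control and -0.10 in silenced cells. Over the brighter probes, BYSL, CCDC86, IMP4, NHP2, PNO1, RRP12, RRP9 and RRS1 passed an adjusted p of 0.05, all negative. They are 12.5% of the 64 genes, against 0.683% negative among all genes. Cytosolic ribosomal proteins, with a median of -0.05, did not share these counts.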
